A study of Mus musculus with 8 samples.

Results

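Transcript levels of 37 genes for the uptake, storage and oxidation of fatty acids were examined in quadriceps muscle of mice with and without the nucleoporin Nup210, a glycoprotein of the nuclear pore membrane. The 37 genes were the rows of the deposited table whose gene symbol matched a fixed list, and all 37 were found among its 47643 genes. The list was chosen with earlier results of these data known. The table held 4 libraries labelled Nup210-/- and 4 labelled Nup210+/+, each from the quadriceps of a separate mouse of strain C57BL/6 (backcrossed to C57BL/6J according to the methods). The knockout is constitutive and acts in all tissues, since a floxed exon of Nup210 was recombined by Cre expressed from the Hprt locus. The labels give no treatment for either group, and the age and sex of the mice are not given in the sources used here. The whole muscle was homogenized, so fewer cells of a type and less RNA per cell cannot be told apart.

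Muscle takes up fatty acids released from lipoproteins by lipoprotein lipase, traps them as acyl-CoA, and either stores them as triglyceride in lipid droplets or moves them into mitochondria through the carnitine shuttle. There each turn of beta-oxidation dehydrogenates, hydrates, oxidizes and cleaves the acyl chain, and the electrons pass through the electron transfer flavoprotein to the respiratory chain. Malonyl-CoA blocks entry at the carnitine step, and the nuclear receptors PPARalpha and PPARdelta, activated by fatty acids, induce many of these genes when fat is the main fuel.

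The targeted gene was measured first. Nup210 was at 9.54, 10.79, 11.93 and 8.81 TPM (transcript abundance per length, scaled to a fixed total per library) in the libraries labelled Nup210-/- and at 5.71, 10.11, 9.19 and 6.71 TPM in those labelled Nup210+/+. The transcript was therefore not lower under the knockout label. The TPM are totals over the whole gene and do not separate the deleted exon from the others, so they do not check the labels, and groups are named by their labels throughout. The paper reports loss of the protein in muscles of this knockout line by immunoprecipitation and immunofluorescence.

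Nup210+/+ replicates 2 and 3 stood apart from the other libraries. Nup210+/+ replicate 2 held the lowest scaled level of 27 of the 37 genes, where scaled TPM are TPM divided by a median-of-ratios factor for the library. No other library held the lowest level of more than 3. The same library had 381.7 summed TPM over 6 granulocyte precursor markers, against 0.31 to 2.12 in the other libraries. Nup210+/+ replicate 3 had 3670 summed TPM over 10 adipocyte markers, against 2016 to 2460 in the others. Most of that sum was the 1 gene Car3, at 2897.7 TPM in that library against 1656.24 to 2076.15 TPM in the others. The level of Adipoq, which encodes an adipocyte hormone, was 127.01 TPM in the same library against 43.49 to 72.37 TPM. The only adipocyte marker listed at 0 in any library was the brown fat gene Ucp1, in 5 of the 8. Summed TPM of 10 leukocyte markers ran from 143.2 to 159.8 in the Nup210-/- libraries and was 218.8, 341.9, 338.4 and 174 in Nup210+/+ replicates 1 to 4. The largest part of each sum was Lyz2. It was at 92.52 to 105.04 TPM in the Nup210-/- libraries and at 142.27, 163.33, 232.69 and 116.65 TPM in the Nup210+/+ libraries. Skeletal muscle identity markers summed to between 44670 and 51270 TPM in every library. Median, counts and the largest shifts of single genes are given below with and without Nup210+/+ replicates 2 and 3.

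Promoter windows show the regulatory sequence beside the genes on which the results turn. Windows of 250 bases before to 50 after the start site in RefSeq (GRCm38.p6) matched 30 of the 37 genes, with 33 windows. Those of 3 genes are printed, for Pla2g6, the gene that passed the test, Plin5, the gene with the largest estimate, and Ucp3, the gene with the widest range between libraries among those estimated higher. Capitals mark 3 motifs, found on either strand. The first is AGGTCA, the single-receptor element of nuclear receptors. The second is the DR1 element to which PPAR and its partner bind, taken as 2 copies of AGGTCA separated by 1 base with up to 2 mismatches over the 12 bases, which can overlap the first motif. The third is the GC box GGGCGG.
Pla2g6 (chr15:79328322-79328621, minus strand): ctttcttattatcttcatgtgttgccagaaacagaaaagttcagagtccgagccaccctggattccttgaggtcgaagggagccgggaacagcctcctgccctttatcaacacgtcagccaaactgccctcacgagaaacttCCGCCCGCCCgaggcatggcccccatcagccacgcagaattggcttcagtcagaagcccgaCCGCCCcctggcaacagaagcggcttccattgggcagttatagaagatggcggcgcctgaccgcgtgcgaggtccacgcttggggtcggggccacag
Plin5 (chr17:56117499-56117798, minus strand): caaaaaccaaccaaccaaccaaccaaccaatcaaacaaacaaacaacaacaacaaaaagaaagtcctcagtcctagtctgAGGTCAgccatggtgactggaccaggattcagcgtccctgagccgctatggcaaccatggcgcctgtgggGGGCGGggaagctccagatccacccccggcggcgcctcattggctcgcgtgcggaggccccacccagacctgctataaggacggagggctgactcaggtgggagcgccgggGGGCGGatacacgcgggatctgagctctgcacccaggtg
Ucp3 (chr7:100472741-100473040, plus strand): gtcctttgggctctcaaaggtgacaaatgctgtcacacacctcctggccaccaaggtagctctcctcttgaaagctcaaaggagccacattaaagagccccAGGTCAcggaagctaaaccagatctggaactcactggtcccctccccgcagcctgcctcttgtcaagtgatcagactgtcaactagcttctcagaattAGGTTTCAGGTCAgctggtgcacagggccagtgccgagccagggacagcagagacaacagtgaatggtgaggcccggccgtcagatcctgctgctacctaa
The Pla2g6 window held GC boxes and no AGGTCA, the Plin5 window an AGGTCA at bases -170 to -165 and GC boxes, and the Ucp3 window 2 AGGTCA and a DR1 match at bases -51 to -39. Over all 32851 windows of the same length, 16.3% held AGGTCA, 35.7% held GGGCGG and 3.86% held a DR1 match. Among the 30 genes with a window, 9 held AGGTCA (Acacb, Acadm, Acadvl, Cd36, Cpt1a, Echs1, Plin2, Plin5 and Ucp3), 23 held GGGCGG, and 6 held a DR1 match (Cd36, Echs1, Etfa, Plin2, Slc25a20 and Ucp3). The MEF2 box CTANNNNTAG, present in 3.69% of all windows, was in none of the 33, and TATAAA, present in 13.6%, was in that of Acacb. These matches describe letters in the windows and not bound sites.

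Of the 37 genes, 34 had a higher estimate in the Nup210-/- libraries and 3 (Ucp2, Angptl4 and Plin2) a lower one. The median log2 fold change of the 37 genes, Nup210-/- minus Nup210+/+ on the log2(scaled TPM + 1) scale, was 0.19, against -0.01 over the 14229 genes tested. One gene, Pla2g6, rose past an adjusted p of 0.05 in limma with Benjamini-Hochberg adjustment over all tested genes, and none fell. Over all tested genes 0.112% were called. The list was chosen with earlier results of these data known, so the share over all genes does not test this count. At an unadjusted p under 0.05, 10 of the 37 genes were higher and 0 lower, where 14.2% of all tested genes were under that p in either direction, 996 higher and 1021 lower. For 6 genes (Pla2g6, Plin5, Mlycd, Acsl1, Eci2 and Acacb) all 4 scaled values of the Nup210-/- libraries lay above all 4 of the Nup210+/+ libraries, and for 0 genes they lay below, where 4.78% and 4.60% of all tested genes did so. With TPM as deposited, 26 of the 37 estimates were higher (70.3%, against 91.9% with scaling), the median of the 37 was 0.10 and that of all genes -0.08. The 8 estimates that turned negative were those of Lpl, Echs1, Hadh, Etfa, Etfb, Ppara, Lipe and Dgat1. The genes without overlap on deposited TPM were Pla2g6, Plin5, Eci2 and Acads, 4 of 37, where 1.54% of all tested genes were higher without overlap. Under each of the 4 scalings tried, 34 of the 37 estimates lay above the median of all genes. A scaling shifts the estimates of all genes nearly alike, so this count could hardly change and is no separate check. With the main scaling, 9 of 9 fast fiber, 7 of 8 muscle identity and 13 of 14 mitochondrial content markers also lay above it. Of slow fiber markers 3 of 10 did, of adipocyte markers 2 of 10 and of leukocyte markers 0 of 10.

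**Figure D1:**
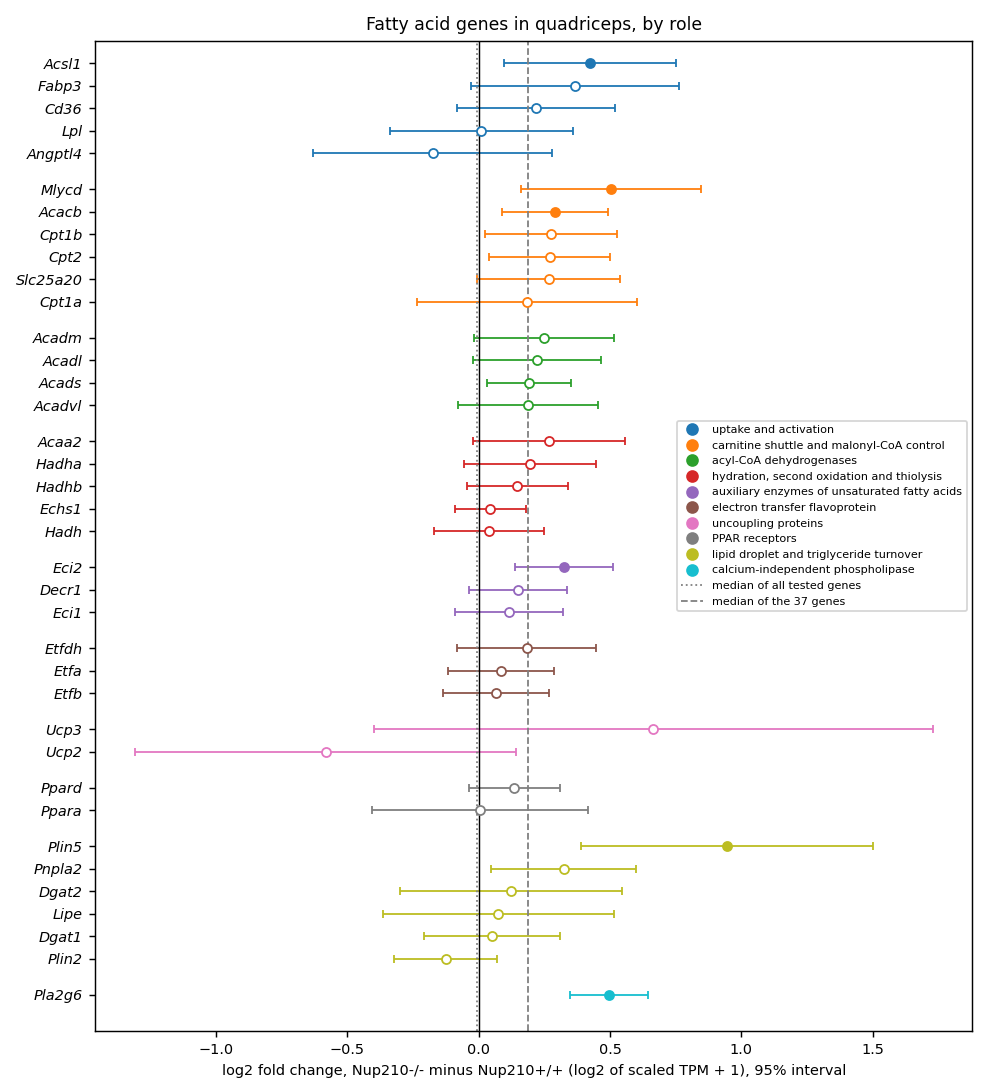
Log2 fold change of each of the 37 genes, Nup210-/- minus Nup210+/+, with its 95% interval from limma on the horizontal axis and the genes grouped by role on the vertical axis. Filled circles are the 6 genes whose scaled TPM did not overlap between genotypes, the dashed line is the median of the 37 genes (0.19) and the dotted line that of all tested genes (-0.01). Most intervals include 0, and those of Ucp2 and Ucp3 are the widest.

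Without Nup210+/+ replicate 2, the median of the 37 genes was 0.11 and 28 of them had a higher estimate. Of the 37 genes, 6 were higher at an unadjusted p under 0.05 in limma without Nup210-/- replicate 2 or without Nup210-/- replicate 4, and 20 were higher and 1 lower without Nup210+/+ replicate 4, when 12 were higher without overlap. In that fit of 4 against 3 libraries 9.32% of all tested genes were higher at that p and 9.45% were higher without overlap, and the shares higher at that p in the fits without Nup210-/- replicates 2 and 4 were 6.37% and 5.70%. Leaving out both Nup210+/+ replicates 2 and 3, an alternative chosen after the data were seen, gave a median of 0.12, with 31 higher. Estimates that shrank by more than 1.5 times without both were those of Fabp3 (0.37 to 0.16), Cpt1b (0.28 to 0.12), Slc25a20 (0.27 to 0.10), Acadm (0.25 to 0.08), Hadhb (0.15 to 0.04) and Etfdh (0.18 to 0.03), among others, and that of Eci1 went from 0.11 to -0.01. Per library, the mean deviation of the 37 genes from their 8-library means on the log2 scale was 0.0459, 0.163, -0.00172 and 0.183 for the Nup210-/- libraries. It was -0.140, -0.319, 0.0507 and 0.0185 for the Nup210+/+ libraries. Nup210-/- replicates 2 and 4 were the highest and held the highest level of 11 and 13 genes, and Nup210-/- replicate 3 lay below Nup210+/+ replicates 3 and 4, so the genotypes overlapped. Markers of slow and oxidative fibers also differed between libraries within a genotype. Their mean deviation was -0.439, 0.331, -0.482 and 0.371 in Nup210-/- replicates 1 to 4 and 0.283, -0.416, -0.0454 and 0.397 in Nup210+/+ replicates 1 to 4. The part of fiber content in the levels of the fatty acid genes was not tested.

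**Figure D2:**
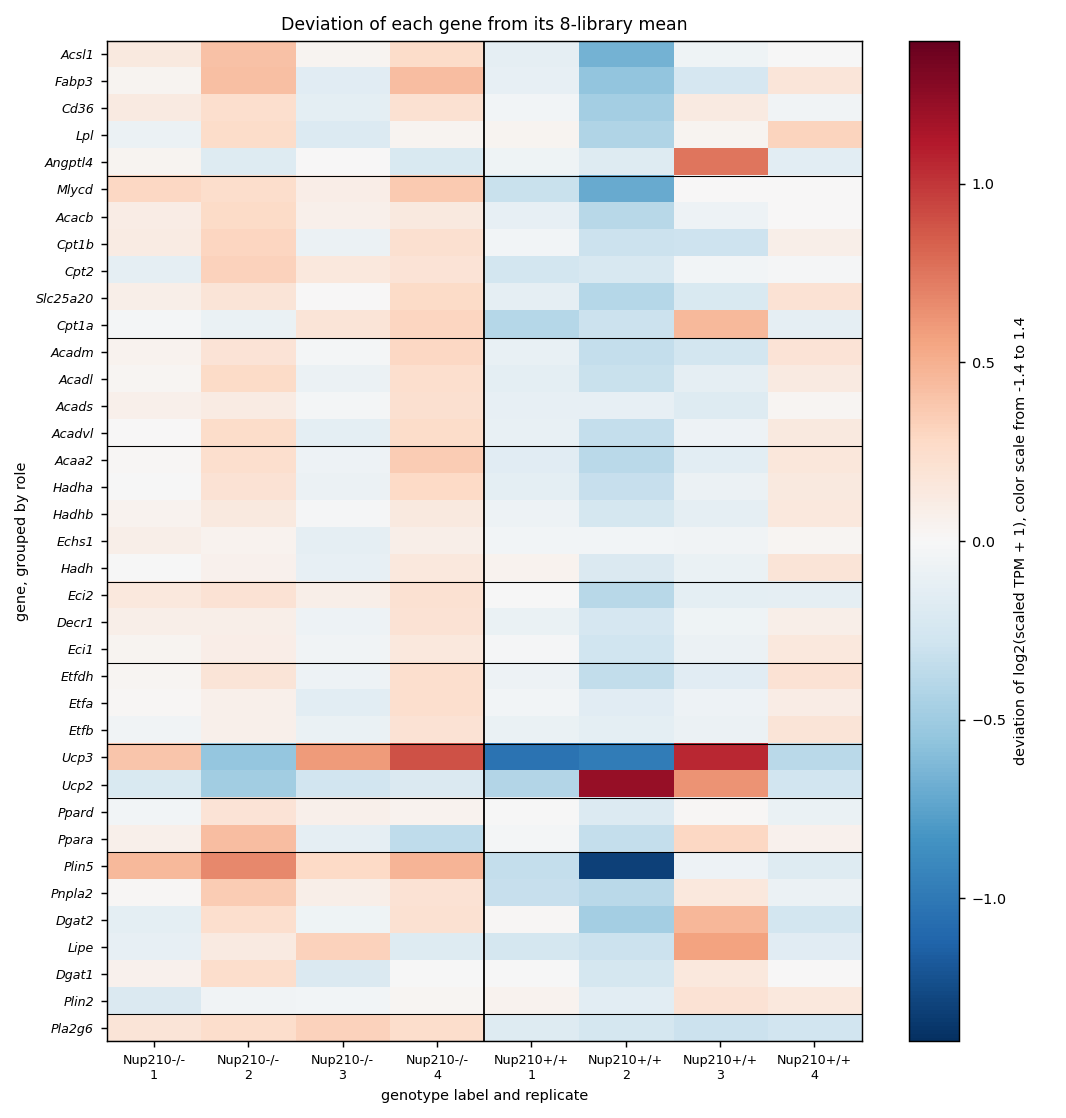
Deviation of each of the 37 genes (rows, grouped by role and divided by lines) from its mean over the 8 libraries (columns), in log2(scaled TPM + 1), with red for higher and blue for lower. Nup210+/+ replicate 2 is blue in most rows, where it held the lowest level of 27 genes, and Nup210+/+ replicate 3 is red for Angptl4, Cpt1a, Ucp3, Ucp2, Lipe and Dgat2 among others.

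Among the genes of uptake and activation, Acsl1, the acyl-CoA synthetase that traps long-chain fatty acids in muscle, had the largest estimate. Acsl1 was at 147.7, 185.7, 146.15 and 158.48 TPM in the Nup210-/- libraries and at 133.21, 92.65, 152.22 and 134.86 TPM in the Nup210+/+ libraries. On deposited TPM the genotypes overlapped through Nup210+/+ replicate 3, and after scaling the lowest Nup210-/- value was 145.5 and the highest Nup210+/+ value 141.3. The log2 fold change of Acsl1 was 0.42 (SE 0.145, limma adjusted p = 0.245), and 0.28 without Nup210+/+ replicate 2. The most abundant member of the group was Fabp3, the cytosolic fatty acid binding protein of heart and muscle, at 726.11, 982.34, 669.67 and 942.17 TPM against 708.85, 525.9, 710.11 and 799.79 TPM. Its values overlapped and its estimate was 0.37 (limma adjusted p = 0.384). Lpl, lipoprotein lipase, averaged 347 ± 50.1 and 370 ± 67.2 TPM (SD, n = 4), and its estimate was 0.01. Cd36, the membrane fatty acid translocase, was at 248 ± 24.8 and 230 ± 47.6 TPM. Angptl4, a secreted inhibitor of lipoprotein lipase and a PPAR target, was at 4, 3.44, 4.1 and 3.15 TPM in the Nup210-/- libraries and at 3.97, 3.6, 8.44 and 3.41 TPM in the Nup210+/+ libraries. A single library, Nup210+/+ replicate 3, set its mean apart, and its log2 fold change went from -0.18 to 0.04 without that library.

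In the carnitine shuttle and its control by malonyl-CoA, all 6 genes had a higher estimate, with a median of 0.27. Limma called 0 of them at an adjusted p of 0.05. At an unadjusted p under 0.05 in limma, 4 of the 6 were higher, as were 7% of all tested genes. Mlycd encodes malonyl-CoA decarboxylase, which removes the inhibitor of the shuttle, and Acacb encodes acetyl-CoA carboxylase 2, which makes it. Mlycd was at 56.66, 57.37, 52.39 and 59.04 TPM in the Nup210-/- libraries and at 40.13, 30.54, 54.72 and 46.78 TPM in the Nup210+/+ libraries. Deposited values overlapped through Nup210+/+ replicate 3, scaled values did not, and the log2 fold change was 0.50 (SE 0.152, limma adjusted p = 0.203) or 0.35 without Nup210+/+ replicate 2. Acacb was at 58, 67.5, 59.84 and 58.66 TPM against 53.68, 44.58, 60.49 and 54.38 TPM, again overlapping only before scaling and only through replicate 3. The log2 fold change of Acacb was 0.29 (SE 0.0900, limma adjusted p = 0.209). The gene of the removing enzyme and that of the synthesizing enzyme were thus both estimated higher, and the difference between their fold changes was not tested.

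Cpt1b, the muscle form of the outer carnitine palmitoyltransferase, was the most abundant gene of the shuttle. It was at 153.14, 182.4, 142.57 and 163.74 TPM in the Nup210-/- libraries and at 149.6, 125.74, 137.65 and 151.81 TPM in the Nup210+/+ libraries, with overlapping values and a log2 fold change of 0.28 (limma adjusted p = 0.306). Cpt1a, the liver form, was at 3.89, 3.83, 4.91 and 5.03 TPM against 3.03, 3.33, 6.86 and 3.59 TPM. The muscle form made up between 95.3% and 98.0% of the TPM of both forms in every library, and its share was lowest in Nup210+/+ replicate 3, where Cpt1a was highest. Cpt2, the inner palmitoyltransferase, was at 51.3 ± 7.36 and 45.1 ± 5.07 TPM (SD, n = 4) with an estimate of 0.27. Slc25a20, the carnitine-acylcarnitine carrier, was at 57.1 ± 3.83 and 50.7 ± 6.96 TPM with an estimate of 0.27. Both overlapped between genotypes.

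The acyl-CoA dehydrogenases carry out the first step of each turn and differ in the chain length they accept. All 4 had a higher estimate, between 0.19 for Acadvl and 0.25 for Acadm, with 0 past an adjusted p of 0.05 in limma. At an unadjusted p under 0.05 in limma, 1 of the 4 was higher, as were 7% of all tested genes. Acadm, the medium-chain enzyme, was the most abundant at 256.55, 295.12, 259.12 and 300.54 TPM in the Nup210-/- libraries against 251.9, 215.66, 247.36 and 286.23 TPM. These values overlapped (limma adjusted p = 0.381). Acads, the short-chain enzyme, was at 49.37, 53.33, 49.23 and 54.65 TPM against 47.36, 47.7, 49.11 and 48.29 TPM. On deposited TPM the lowest Nup210-/- value (49.23) lay just above the highest Nup210+/+ value (49.11), and on scaled TPM the genotypes overlapped. The log2 fold change of Acads was 0.19 (SE 0.0709, limma adjusted p = 0.273). Acadl and Acadvl, the long-chain and very-long-chain enzymes, were at 201 ± 22.2 and 208 ± 25.4 TPM in the Nup210-/- libraries and at 184 ± 18.1 and 194 ± 22.6 TPM in the Nup210+/+ libraries (SD, n = 4).

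The 5 genes of hydration, second oxidation and thiolysis had a median of 0.15, with 0 past an adjusted p of 0.05 and 0 at an unadjusted p under 0.05 in limma. Hadhb, the thiolase subunit of the trifunctional protein, was the most abundant at 422.68, 467.33, 426.95 and 442.85 TPM in the Nup210-/- libraries and 421.16, 377.69, 444.02 and 457.01 TPM in the Nup210+/+ libraries. Its values overlapped, with a log2 fold change of 0.15. Hadha, the other subunit, was at 258 ± 26.9 and 241 ± 27.7 TPM (SD, n = 4). Echs1, the short-chain enoyl-CoA hydratase, varied least of the 37 genes between libraries, with a coefficient of variation of 4.71% over the 8, and had an estimate of 0.04 whose 95% interval was -0.09 to 0.18. Hadh, the short-chain hydroxyacyl-CoA dehydrogenase, had an estimate of 0.04 and Acaa2, a mitochondrial thiolase, one of 0.27.

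Unsaturated fatty acids need isomerases and a reductase before they can pass through the cycle. Eci2, an enoyl-CoA isomerase, was at 65.32, 70.64, 65.99 and 67.24 TPM in the Nup210-/- libraries and at 63.39, 48.94, 63.45 and 54.31 TPM in the Nup210+/+ libraries. Its genotypes did not overlap on deposited or scaled TPM, and its log2 fold change was 0.32 (SE 0.0822, limma adjusted p = 0.160, exact two-sided permutation p = 0.0286, the smallest that 4 against 4 allows). Any gene without overlap has this permutation p, so it adds nothing to the lack of overlap. The same holds for Plin5 and Pla2g6 below. Eci1, the other isomerase of the mitochondrion, was at 103.12, 111.95, 103.29 and 110.39 TPM against 108.01, 90.38, 112.94 and 112.78 TPM, and these values overlapped with an estimate of 0.11. Decr1, the dienoyl-CoA reductase, was at 59.4 ± 3.08 and 57.1 ± 4.86 TPM (SD, n = 4) with an estimate of 0.15.

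The electron transfer flavoprotein group showed overlapping values for all 3 genes and no call in limma, with 0 at an unadjusted p under 0.05. Etfa was at 244.84, 265.39, 231.33 and 282.89 TPM in the Nup210-/- libraries and at 256.1, 237.68, 272.98 and 262.97 TPM in the Nup210+/+ libraries. The estimates were 0.08 for Etfa, 0.06 for Etfb, the other subunit, and 0.18 for Etfdh, which hands the electrons to ubiquinone, and those of Etfa and Etfb turned negative with TPM as deposited.

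The uncoupling proteins, carriers of the inner mitochondrial membrane whose genes lie side by side on chromosome 7, varied most of the 37 genes between libraries, with coefficients of variation of 58.4% for Ucp2 and 58.2% for Ucp3 over the 8. Ucp3, the muscle form, was at 74.09, 40.07, 91.33 and 104.17 TPM in the Nup210-/- libraries and at 29.5, 30.82, 140.46 and 43.72 TPM in the Nup210+/+ libraries. The highest value of all belonged to Nup210+/+ replicate 3, and the other 3 Nup210+/+ libraries lay near or below the lowest Nup210-/- library. The log2 fold change was 0.67 (SE 0.471, limma adjusted p = 0.541), its 95% interval ran from -0.40 to 1.73, and without Nup210+/+ replicate 3 the estimate was 1.13 and without replicate 1 it was 0.43, still without a call (lowest limma adjusted p over the alternatives 0.237). Pdk4, the pyruvate dehydrogenase kinase that spares glucose and a PPAR target, was at 188.5, 120, 276.61 and 312.74 TPM against 72.23, 39.6, 361.32 and 135.26 TPM, and ranked the 8 libraries as Ucp3 did except for the lowest pair. Pdk4 also had the largest estimate of the 15 PPAR partners, coactivators and targets tested, at 1.04. Both genes are known to rise in muscle on fasting. The mice of the study were fed ad libitum, and the time of day of collection is not given in the sources used here. The part of feeding in the levels of Ucp3 and Pdk4 was not tested.

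**Figure D3:**
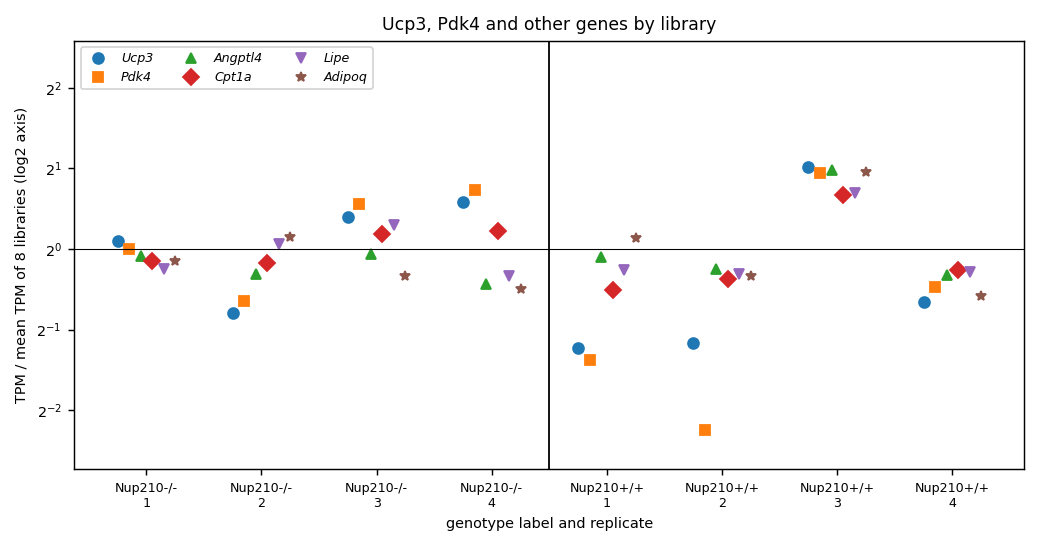
TPM of Ucp3, Pdk4, Angptl4, Cpt1a, Lipe and Adipoq in each library divided by the gene's mean over the 8 libraries, on a log2 axis, with the Nup210-/- libraries on the left and the Nup210+/+ libraries on the right. The genes were chosen after the data were seen for high levels in Nup210+/+ replicate 3, so all 6 are highest there. On scaled TPM that library held the highest level of 6 of the 37 genes. Ucp3 and Pdk4 also range widely over the other libraries.

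Ucp2 had the lowest estimate of the 37 genes. It was at 16.21, 13.87, 16.56 and 16.22 TPM in the Nup210-/- libraries and at 15.24, 49.66, 35.45 and 15.72 TPM in the Nup210+/+ libraries. Only Nup210+/+ replicates 2 and 3 were high, and the other 2 lay within the range of the Nup210-/- libraries. The log2 fold change was -0.58 (SE 0.322, limma adjusted p = 0.436) and 0.05 without those replicates. Ucp2 is expressed in leukocytes, and the same 2 libraries had the highest summed leukocyte markers, 341.9 and 338.4 TPM against 143.2 to 218.8 in the other 6. Lyz2 alone was at 163.33 and 232.69 TPM in Nup210+/+ replicates 2 and 3. The mean log2 deviation of the 10 markers was 0.950 and 0.413 in those libraries, against -0.395 to 0.0937 in the others. All 10 leukocyte markers had a lower estimate in the Nup210-/- libraries with a median of -0.65, none of them was at 0 in any library, and their part in the level of Ucp2 was not tested.

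The genes of the PPAR receptors did not separate the genotypes. Ppard was at 12.97, 16.13, 14.99 and 13.74 TPM in the Nup210-/- libraries and at 14.5, 12.76, 16.1 and 12.58 TPM in the Nup210+/+ libraries, with a log2 fold change of 0.14. Ppara was at 8.14 ± 2.29 and 8.59 ± 2.06 TPM (SD, n = 4), with an estimate of 0.01 and a 95% interval of -0.41 to 0.42.

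Of the 6 lipid droplet and triglyceride genes, 5 had a higher estimate, and limma called 0 at an adjusted p of 0.05. At an unadjusted p under 0.05 in limma, 2 of the 6 were higher, as were 7% of all tested genes. Plin5, the perilipin that couples lipid droplets to mitochondria in oxidative muscle, had the largest estimate of all 37 genes. It was at 15.28, 18.71, 14.19 and 15.32 TPM in the Nup210-/- libraries and at 9.17, 4.2, 12.22 and 9.53 TPM in the Nup210+/+ libraries. The genotypes did not overlap, and the lowest value by far was that of Nup210+/+ replicate 2. The log2 fold change was 0.95 (SE 0.246), with a limma adjusted p of 0.169 and an exact two-sided permutation p of 0.0286, and the estimate was 0.67 without Nup210+/+ replicate 2. The ratio of mean scaled TPM was 1.94.

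Pnpla2, the adipose triglyceride lipase, was the most abundant of this group at 119.01, 156.86, 131.94 and 133.82 TPM in the Nup210-/- libraries against 101.65, 99, 154.54 and 111.67 TPM. The values overlapped through Nup210+/+ replicate 3, and the estimate was 0.32 (limma adjusted p = 0.282). Plin2, the broadly expressed lipid droplet coat protein, was at 37.58, 43.75, 44.79 and 43.79 TPM in the Nup210-/- libraries and at 48.85, 42.67, 59.27 and 48.47 TPM in the Nup210+/+ libraries. Its estimate was -0.13 (limma adjusted p = 0.534), opposite in sign to that of Plin5, and only Nup210+/+ replicate 2 overlapped the Nup210-/- range on scaled TPM. Lipe, hormone-sensitive lipase, stood at 20.37, 25.29, 29.78 and 19.21 TPM against 20.14, 19.52, 39.29 and 19.91 TPM, with the highest value again in the library with the highest adipocyte markers. Dgat1 and Dgat2, which complete triglyceride synthesis, had estimates of 0.05 and 0.12. That of Dgat2 was -0.01 without Nup210+/+ replicate 2 and 0.30 without Nup210+/+ replicate 3, in which Dgat2 reached 60.54 TPM against 28.75 to 45.35 TPM. Adipocytes express Lipe and Dgat2 strongly, and the part of adipocyte RNA in these values was not tested.

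Pla2g6, a calcium-independent phospholipase that releases fatty acids from membrane lipids, was the gene that rose past the threshold. It was at 11.17, 12.31, 13.26 and 11.64 TPM in the Nup210-/- libraries and at 9.23, 8.89, 9.24 and 8.05 TPM in the Nup210+/+ libraries. Every Nup210-/- value lay above every Nup210+/+ value on deposited and on scaled TPM, and neither Nup210+/+ replicate 2 nor 3 stood apart. The means were 12.1 ± 0.907 and 8.85 ± 0.559 TPM (SD, n = 4), the ratio of mean scaled TPM was 1.46, and the log2 fold change was 0.50 (SE 0.0659, 95% interval 0.35 to 0.65, limma adjusted p = 0.049, exact two-sided permutation p = 0.0286). The adjusted p stood close to the threshold. It ranged from 0.0250 to 0.231 over the 21 alternatives and was under 0.05 in 5 of them but in none that left out a library, while the estimate ran from 0.41 with TPM as deposited to 0.54. The gene lies at chr15:79286228-79328390 on the minus strand, and its exons overlapped no other gene in GENCODE M21.

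**Figure D4:**
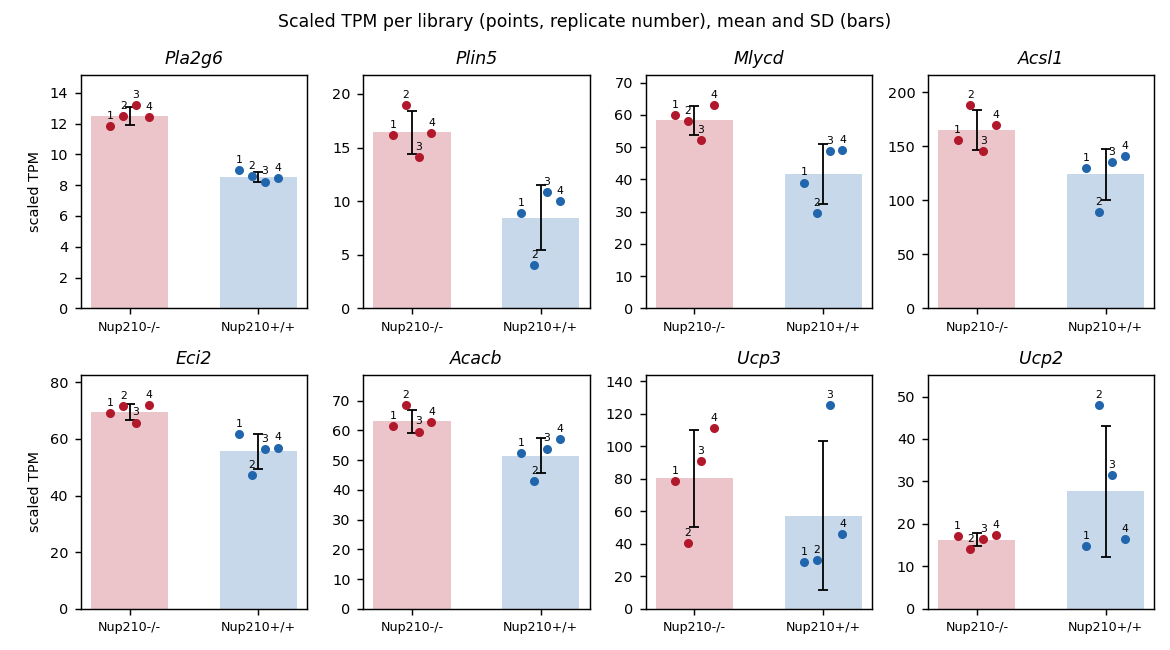
Scaled TPM of the 6 genes without overlap between genotypes and of Ucp3 and Ucp2 in each library, with points numbered by replicate, bars at the mean of 4 libraries and error bars of 1 SD. The Pla2g6 points form 2 tight groups, Nup210+/+ replicate 2 is lowest for Plin5, Mlycd, Acsl1, Eci2 and Acacb, and for Ucp3 Nup210+/+ replicate 3 (125.1) and for Ucp2 Nup210+/+ replicate 2 (47.9) hold the highest values.

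Genes of the surrounding pathways were examined from lists, and limma called 0 genes of these lists at an adjusted p of 0.05. At an unadjusted p under 0.05 in limma there were 23, counted below by list with the number of genes tested. Over all 14229 tested genes, 14.2% were under that p, 996 higher and 1021 lower. Of 16 other genes of fatty acid transport and activation, 4 were higher and 3 lower at an unadjusted p under 0.05. The extremes were Acot2, a mitochondrial acyl-CoA thioesterase, with an estimate of 0.80 (limma adjusted p = 0.116), and Acsl5, an acyl-CoA synthetase, with -0.80 (limma adjusted p = 0.169). Of 13 peroxisomal genes, 3 were higher and 0 lower at that threshold, and the lowest estimate was -0.29 for Decr2, a peroxisomal reductase. Of 15 other mitochondrial acyl-CoA genes, 0 were under an unadjusted p of 0.05, and the extremes were Acad10 (0.31) and Acad8 (-0.10).

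The list of fatty acid synthesis and AMPK subunit genes was the one with mostly lower estimates, 13 of 17, with a median of -0.31. Scd2, a stearoyl-CoA desaturase, was lowest at -0.90 (limma adjusted p = 0.290), and its values of 5.69, 6.93, 6.96 and 4.87 TPM stood against 14.8, 28.81, 9.55 and 6.74 TPM. Its highest value was again in Nup210+/+ replicate 2. Prkaa2, the catalytic AMPK subunit of muscle, had the highest estimate of that list at 0.13. Among PPAR partners, coactivators and targets, 13 of 15 estimates were higher with a median of 0.09, from -0.29 for the estrogen-related receptor gene Esrrg to Pdk4. In the list of other lipid droplet and glycerolipid genes, 12 of 21 were higher. Gpam, the mitochondrial glycerol-3-phosphate acyltransferase that starts triglyceride synthesis, was at 63.43, 59.83, 71.18 and 65.08 TPM against 49.65, 47.2, 61.36 and 44.98 TPM, with an estimate of 0.45 (limma adjusted p = 0.0614). G0s2, the inhibitor of the lipase encoded by Pnpla2, was lowest in that list at -0.52 (limma adjusted p = 0.312). Of 12 other phospholipase A2 and patatin-like genes tested, 6 were higher and 6 lower, from Pla2g4a at -0.66 to Pla2g4e at 0.48 (limma adjusted p = 0.110). The direction of the Pla2g6 estimate was thus not shared by all genes of this mixed list. At an unadjusted p under 0.05 in limma, 1 of 17 synthesis and AMPK genes was higher and 2 lower. Of 15 PPAR partners 1 was higher and 1 lower, of 21 lipid droplet genes 4 and 1, and of 12 phospholipase genes 2 and 1. With TPM as deposited, the number of higher estimates was 9 of 16 for transport and activation, 8 of 13 for peroxisomal, 5 of 15 for other mitochondrial acyl-CoA, 2 of 17 for synthesis and AMPK, 8 of 15 for PPAR partners, 7 of 21 for lipid droplet and 5 of 12 for phospholipase genes.

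Marker lists gave RNA levels of cell and fiber types beside these levels, which do not measure cell content. All 9 fast glycolytic fiber markers were estimated higher in the Nup210-/- libraries, with a median of 0.18. Their summed levels were 86040 to 93950 against 80740 to 90600 TPM, and 0 passed an adjusted p of 0.05 in limma. At an unadjusted p under 0.05 in limma, 3 of the 9 were higher, as were 7% of all tested genes. Slow and oxidative fiber markers had a median of -0.15 with 3 of 10 higher and summed levels of 4355 to 6373 against 4327 to 6418 TPM, 14 mitochondrial content markers a median of 0.05 with 12 higher, and 9 endothelial markers a median of 0.08 with 5 higher. Skeletal muscle identity markers had a median of 0.13 with 7 of 8 higher. Adipocyte markers had a median of -0.11 with 2 of 10 higher and summed levels of 2016 to 2259 against 2111 to 3670 TPM. Most of each sum was Car3, at 1656.24 to 1902.56 against 1819.68 to 2897.7 TPM. Granulocyte precursor markers had a median of -1.45 with 0 of 6 higher. Among the leukocyte markers Cd52 fell past the threshold (log2 fold change -0.81, limma adjusted p = 0.049), the only marker called. At an unadjusted p under 0.05 in limma, 6 of the 10 were lower, as were 1021 of all 14229 tested genes. With TPM as deposited, 8 of 9 fast fiber, 1 of 10 slow fiber, 1 of 14 mitochondrial content, 4 of 9 endothelial, 4 of 8 muscle identity, 1 of 10 adipocyte and 0 of 10 leukocyte markers were higher, so the direction of the mitochondrial and endothelial lists depended on the scaling. The part of each of these in the fatty acid genes was not tested.

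Some of the 37 genes overlap exons of others or match their transcripts in GENCODE M21 (GRCm38). Reads shared between them were not measured. Exons of 9 genes (Fabp3, Acsl1, Acadvl, Hadha, Echs1, Eci2, Etfdh, Ucp2 and Lipe) overlapped a gene on the opposite strand. The libraries were directional, and whether counting used strand is not given in the sources used here. Cpt1b shared exons with the overlapping model Gm44502 and Etfb with Gm45233. The processed pseudogene Fabp3-ps1 matched Fabp3 over 402 bases at 99.3% identity and had a mean of 15.3 TPM, against 758 TPM for Fabp3, so how reads were divided between that pair is uncertain. In all, 12 of the 37 genes matched a transcript of another gene over at least 150 bases at 95% identity or more. Among them Eci2 matched Zfp445 over 271 bases, and part of the transcript of Lpl matched several genes. Part of the transcript of Hadhb matched many genes over up to 196 bases, among them Map4 at a mean of 206 TPM. Part of that of Slc25a20 matched many over up to 366 bases.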

How the data were processed

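The authors selected polyadenylated RNA from quadriceps of 8 mice, made directional libraries, sequenced single-end reads, trimmed them with cutadapt 2.3, aligned them to mm10 with STAR 2.7.0d and quantified Ensembl genes with RSEM 1.3.1. The deposited table holds TPM per gene and library, rounded to 2 decimals by the authors, with each library summing to the same fixed total. TPM keep no depth, so the depth is unknown and no counting interval is given, and a gene that takes more of a library lowers the others.

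Genotype and replicate number came from the sample labels, and each library is a separate mouse. TPM were divided by median-of-ratios factors over the 15225 genes above 0 in all libraries, and log2(scaled TPM + 1) of the 14229 genes whose TPM averaged 0.5 or more were fitted in limma 3.58.1 (R 4.3.3), with genotype as the only term, an intensity trend and Benjamini-Hochberg multiple-testing adjustment across the tested genes. Fold changes are on that scale, which understates those of low genes. The authors compared estimated counts with DESeq2, and those counts were not used here. Single genes were also compared by two-sided exact permutation over the 70 labelings. A gene without overlap always has the smallest p of that test, 0.0286, so for such genes it is no separate support. On scaled TPM all 6 genes without overlap had it. Promoter windows are from RefSeq, and gene coordinates and overlaps from GENCODE M21, with copies sought by BLAST at 95% identity over 150 bases.

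The 37 genes and the lists were chosen with earlier results of these data known. Values in every library are given for genes past the threshold, genes without overlap, the most abundant gene of each role, and the 3 largest and 3 smallest estimates. From each pathway list the called genes and both extremes are named, except for 1 gene that is not reported here. Acads, Cpt1a and Lipe, and the values of Adipoq and Pdk4, were given per library after the data were seen.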

Additional observations from a re-analysis of the deposited data

Results flagged for a closer look

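Among the 74 groups of 4 libraries (37 genes in 2 genotypes), 6 held a library far from the other 3 by Dixon's criterion, where chance gives about 1 in 20, or 3.7 groups. Of these 6, 4 were Nup210+/+ replicate 3. In that library Ucp3 was at 140.46 TPM against 29.5 to 43.72 TPM in the rest of the group, Angptl4 at 8.44 TPM against 3.41 to 3.97 TPM, Cpt1a at 6.86 TPM against 3.03 to 3.59 TPM, and Lipe at 39.29 TPM against 19.52 to 20.14 TPM. The remaining flags were low values in Nup210-/- libraries. Ucp2 was at 13.87 TPM in replicate 2 where the rest held 16.21 to 16.56 TPM, and Plin2 was at 37.58 TPM in replicate 1 against 43.75 to 44.79 TPM. The low value of Nup210+/+ replicate 2 for most genes did not meet this criterion for any of the 37 genes.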

How the results depend on the processing

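The median of the 37 genes stayed above 0 in all 21 alternatives, from 0.10 with TPM as deposited to 0.24, and 25 of the 37 estimates kept their sign in all of them. The single call, Pla2g6, was lost (0 of the 37 genes past an adjusted p of 0.05) without the filter on low values, with a mean TPM of at least 0.1, with TPM as deposited, with upper-quartile scaling, when rescaled without mitochondrial and top genes, in eBayes without the trend, without both Nup210+/+ replicates 2 and 3, and without any single library (0 to 0, with its limma adjusted p from 0.0552 to 0.139). It was kept with a pseudocount of 0.1 or 0.5, a mean TPM of at least 1, robust eBayes and library weights. The count of genes higher without overlap ran from 6 to 12 over the single libraries left out, and was 12 without Nup210+/+ replicate 4. Over the same fits the share of all tested genes higher without overlap ran from 6.12% to 9.45%. In that fit 20 of the 37 genes were higher and 1 lower at an unadjusted p under 0.05 in limma, against 10 and 0. Of all tested genes, 1327 were higher at that p in that fit, against 996, and 1346 were higher without overlap, against 680. The count lower without overlap ran from 0 to 1, with Plin2 entering without Nup210+/+ replicate 2, and was also 1 without replicates 2 and 3. Of all tested genes, 6.56% and 10.3% were lower without overlap in those 2 fits, so 1 of 37 is no result about the genes.

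The calls over all genes, 16, became 1 without the filter, 0 with a mean TPM of at least 0.1, 27 with at least 1, 0 with upper-quartile scaling, 10 when rescaled, 0 without the trend, 84 with library weights, 7 without replicates 2 and 3, and 0 to 10 without single libraries. For the pathway lists, which were given the same alternatives after the data were seen, the count was 0 except for 1, Gpam, with library weights. With the replicate block the calls were 0 of the 37 genes (Pla2g6 limma adjusted p = 0.231, with 13 genes higher at an unadjusted p under 0.05) and 0 of all genes, with 1850 at an unadjusted p under 0.05. Deviations of same-numbered libraries correlated at -0.0329, 0.0054, 0.0192 and 0.0857, and those of different-numbered libraries at -0.0814 to 0.1033. The same-numbered values lay within that range and show no pairing by number. They cannot exclude one, since a shared collection or processing need not leave a correlation over all genes. The causes of these changes were not tested, and the unknown depth limits what can be said of genes at a few TPM.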
